A study of Mus musculus with 28 samples.

Results

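The genes described are the cytochrome P450 genes of the mouse that were expressed in wounded skin. They were taken as the symbols made of Cyp, a family number, a subfamily letter and a gene number, with at least 10 counts in at least 4 of the 28 libraries. Of 29068 genes in the table, 71 had such a symbol and 36 of these met the count rule. The other 35 had 102 counts or fewer over all libraries. Just outside the rule lay Cyp8b1 (102 counts, at least 10 of them in 2 libraries) and Cyp4f14 (98 counts), and just inside it lay Cyp46a1 (607 counts, 22 libraries) and Cyp2b23 (24 libraries). All 36 were among the 18107 genes tested.

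Total RNA came from skin of MLKL+/+ mice on the C57BL/6J background, that is wild type littermates of an MLKL knockout line, after a punch excision on the back, taken from the whole wound with its scab and edges. Groups are named Day0, Day3, Day5, Day7, Day10, Day12 and Day14 as in the labels, with 4 libraries each, and all mice carried the same genotype. The labels call Day0 the control, while the study counts the day of injury itself as its earliest day, so Day0 may hold skin taken at the injury. The mice were young adults, and the labels do not say that the libraries of a day came from separate animals, so that p-values measure the spread between these libraries only. The study used both sexes. RNA of Y-linked genes was found in all 28 libraries (Ddx3y, lowest 51.6 CPM, counts over the TMM-scaled library total), and Xist reached at most 0.295 CPM.

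Cytochrome P450 enzymes are heme proteins that add an oxygen atom to small lipophilic molecules. Most sit in the endoplasmic reticulum and take electrons from P450 oxidoreductase, and a few sit in mitochondria and take them from ferredoxin. In skin they are known for making barrier lipids in the epidermis, for oxidizing arachidonic acid and leukotrienes, for activating or degrading steroids, retinoic acid and vitamin D, and for handling foreign chemicals that cross the barrier.

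Between 36706513 and 40655764 reads per library were counted. Levels are given as FPKM (fragments per kilobase of transcript, scaled to library size), which allows genes to be compared, and differences as log2 fold changes of TMM-normalized counts from edgeR, with the standard error. "Called" means an adjusted p under 0.05 over all genes tested. Markers of whole skin were present, while the summed hepatocyte markers did not exceed 4.99 CPM in any library. The Day0 libraries stood apart from each other more than those of any other day, with a biological coefficient of variation of 26.4% against 5.70% to 10.8%. They fell into libraries 1 and 4 on the one side and 2 and 3 on the other. The skeletal muscle markers summed to 30330.5 and 31747 CPM in libraries 1 and 4 and to 18082 and 18387 in 2 and 3, and the fibroblast markers to 25002 and 14286 against 55970.3 and 53733. Where a call of a P450 gene described here was lost with 1 of these pairs as the only Day0 libraries, the value with that pair is given, a choice made after seeing the data. This was not checked for Cyp4f13, Cyp4f17 or genes outside the P450 set defined above. For Cyp2j6 and Cyp2j9 it was checked on Day3 and Day14 only.

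The P450 genes fell far more often than they rose. On Day3, 22 of the 36 (61.1%) were lower than on Day0, against 34.8% of all genes tested, and 9 (25%) were higher, against 31.8%. The median log2 fold change of the members on Day3 was -1.08, beside -0.03 over all genes. The excess of lower genes remained visible on the later days. There were 19 lower and 10 higher members on Day5 (background 30.6% and 29%), 20 lower and 8 higher on Day7 (24.8% and 25.6%), and 19 lower and 8 higher on Day10 (26.9% and 23.5%). On Day12, 22 were lower and 6 higher (25.6% and 21.7%), and on Day14, 23 were lower and 7 higher (34.5% and 28.2%). The share of members called higher was thus near or under the background on every day. Without composition normalization, which moved the median of all genes by 0.14 on Day12 and 0.13 on Day14, the Day12 split became 17 lower and 8 higher.

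**Figure D1:**
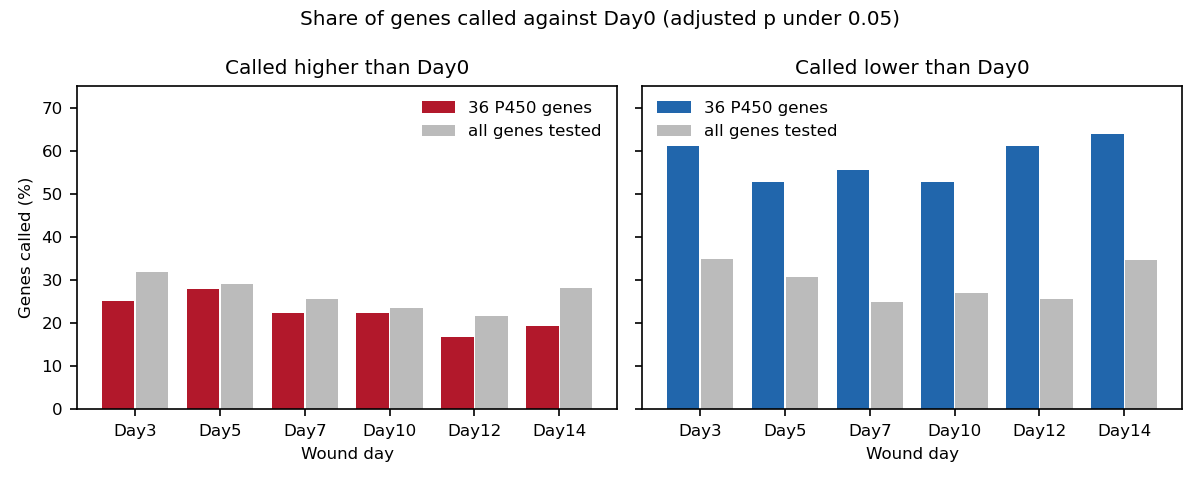
Bars give the percent of genes called higher (left) or lower (right) than Day0 on each wound day, coloured for the 36 P450 genes and grey for the 18107 genes tested. The coloured bars for lower genes reach 52.8% to 63.9%, and the grey bars 24.8% to 34.8%.

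With the study's own criteria for single genes, a log2 fold change above 1.5 or below -1.5 with a raw p under 0.05, 18 of the 36 members passed on Day3, 9 on Day5, 6 on Day7, 4 on Day10, 5 on Day12 and 13 on Day14. The shares over all genes were 18.9%, 13.9%, 9.4%, 9.47%, 7.39% and 14%. The counts were thus largest at both ends of the series, as were the shares over all genes. Testing the 7 time points jointly called all 36 members, beside 89.5% of all genes, and testing the 6 wound days jointly also called all 36, beside 85.1%. The joint result on its own therefore says little about the P450 genes.

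Single members followed different courses. Cyp1a1, Cyp27a1, Cyp2b23, Cyp2e1, Cyp2f2, Cyp2j12, Cyp2j6, Cyp2j8, Cyp2j9, Cyp2w1, Cyp3a13, Cyp3a57, Cyp4f37 and Cyp4f39, 14 in all, were called lower than Day0 on all 6 wound days. That is 38.9% of the members, where 9.76% of all genes tested had such calls. No member was higher on all 6 days (edgeR, adjusted p), against 4.76% of all genes. On at least 1 day 17 members (47.2%) were higher and 29 (80.6%) lower, with 55.3% and 59.3% among all genes. Higher on some days and lower on others were 10 members (27.8%) and 23.8% of all genes. By mean FPKM, 18 members were highest on Day0, 8 on Day3 and 4 on Day14, and 17 were lowest on Day3 and 11 on Day14. Days of highest and lowest mean were not counted over all genes, so these counts describe the members only, without a background. In Cyp2b23, Cyp2w1, Cyp3a13 and Cyp4f37 some of the lower calls rested on which Day0 libraries were used, as given with each gene. Cyp2j6 and Cyp2j9 were checked for this on Day3 and Day14 only.

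**Figure D2:**
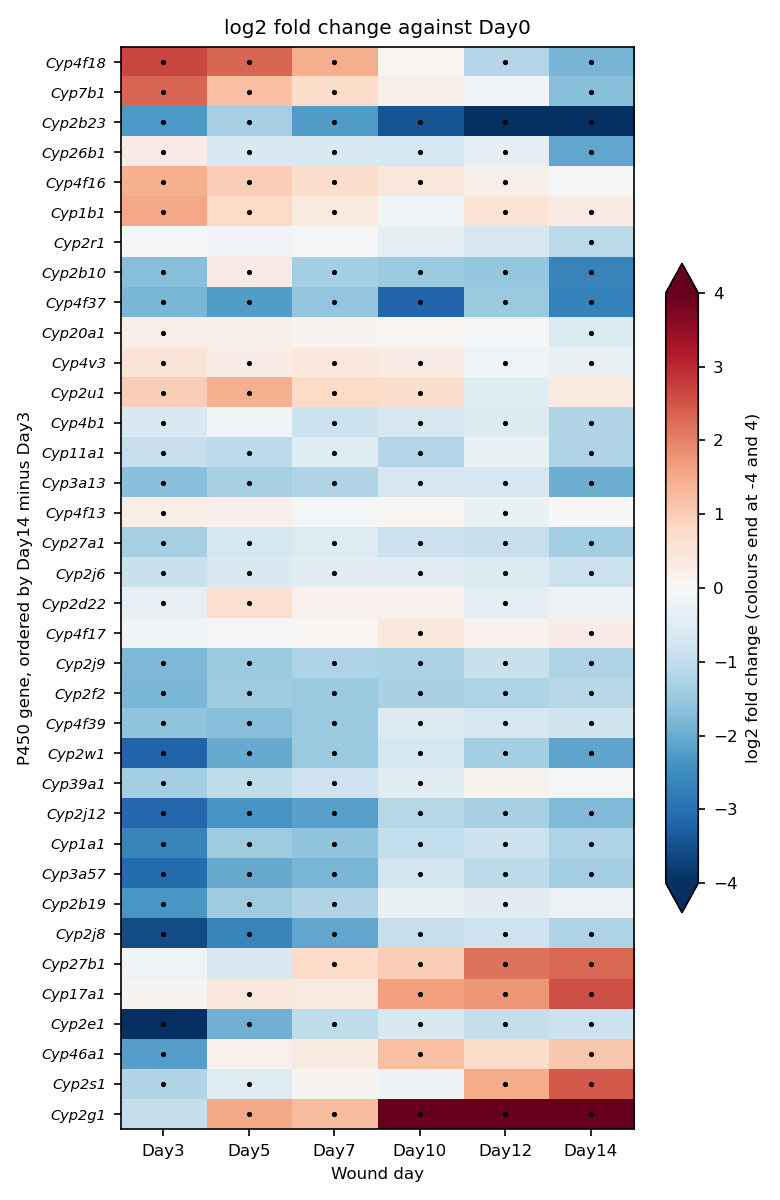
Colours give the log2 fold change against Day0 of each of the 36 P450 genes (rows, ordered by the difference of Day14 and Day3) on the 6 wound days (columns), and dots mark an adjusted p under 0.05. Cyp4f18 and Cyp7b1 at the top turn from red to blue, and Cyp2g1, Cyp2s1 and Cyp17a1 near the bottom end in red.

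Cyp2e1, which oxidizes ethanol, acetone and other small molecules, had the highest mean FPKM of the members on all 7 days, by a wide margin on every day but Day3, when Cyp1b1 (45.3) came close to it (46.3) and exceeded it in library 4. The Day0 libraries held 842, 677, 643 and 884 FPKM and the Day3 libraries 50.9, 49.9, 44.9 and 39.4 FPKM. Every Day3 library lay far under every Day0 library. The fall on Day3 was 15.8-fold (log2 fold change -3.99 ± 0.10, SE, adjusted p = 2.91e-22). Mean FPKM then climbed to 195 ± 6.20 on Day5, 379 ± 24.7 on Day7 and 508 ± 26.4 on Day10 (SD, n = 4). It did not go further up, with 439 ± 21.8 on Day12 and 454 ± 31.5 on Day14, 1.83-fold under Day0 (adjusted p = 2.16e-09). The 4 libraries of Day14 held 436, 439, 501 and 439 FPKM, all lower than on Day0.

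Cyp2e1 made up most of the summed FPKM of the 36 members on every day but Day3 and Day5. Its share was 64.0% to 68.5% on Day0, 14.9% to 17.2% on Day3, 41.6% to 44.5% on Day5 and 61.3% to 64.1% on Day14. The sum over all members was 1143 ± 140.5 FPKM on Day0 and 287 ± 17.6 on Day3 (SD, n = 4). Without Cyp2e1 it was 382 ± 21.5 and 241 ± 12.8. The rest of the family together thus lost far less RNA than Cyp2e1 did. Markers of adipocytes, a cell type known to express Cyp2e1, summed to 4886 to 6110.3 CPM on Day0 and 5889.7 to 7144 on Day3. The sum was not lower on Day3, while of the 7 markers 4 were called lower and 1 higher (median log2 fold change -0.19). Their part in the fall of Cyp2e1 was not tested. In bulk tissue, fewer cells of a type and less RNA per cell cannot be told apart.

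Cyp2f2, known as the naphthalene-oxidizing enzyme of airway club cells, had the second highest mean FPKM on every day but Day3, when that of Cyp1b1 (45.3) was above it (40.6). The Day0 libraries held 174, 119.9, 115 and 189 FPKM, with libraries 1 and 4 above 2 and 3. On Day3 they held 44.4, 42.2, 39.4 and 36.5 FPKM, and the log2 fold change was -1.82 ± 0.12 (adjusted p = 2.07e-13). The return was partial, with means of 53.8 on Day5, 62.6 on Day10 and 76.2 ± 8.72 on Day14 (SD, n = 4). All wound libraries remained under all Day0 libraries. A share of 13.5% of its exonic bases overlaps Gm15883 on the other strand, and without knowledge of strand in the counting these reads cannot be told apart.

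Skeletal muscle markers were also lower in the wound than on Day0, and these and the basal keratinocyte markers split the Day0 libraries as Cyp2f2 did. All 7 skeletal muscle markers were called lower on all 6 wound days, with sums of 18082 to 31747 CPM on Day0, 4059 to 5245 on Day3, 8606 to 11038 on Day10 and 4589.7 to 5784 on Day14. The basal keratinocyte markers summed to 5906 and 6725 CPM in Day0 libraries 1 and 4, to 2965 and 3056 in 2 and 3 and to 3464 to 4317 on Day3, with 3 of 5 called lower. Their part in the results of Cyp2e1 and Cyp2f2 was not tested.

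Cyp4b1, a hydroxylase of medium-chain fatty acids, changed less. It went from 35.2, 39.2, 40.6 and 35.1 FPKM on Day0 to 26.2, 22.9, 25.0 and 20.5 on Day3, a log2 fold change of -0.61 ± 0.07 (adjusted p = 4.68e-08). Day5 was not called, at 33.6 ± 1.66 FPKM (adjusted p = 0.167). The lowest values came at the end, with 16.3, 19.5, 17.6 and 18.5 FPKM on Day14 and a log2 fold change of -1.19 ± 0.08 (adjusted p = 2.25e-13). Its low days were thus separated by a day on which no difference was called.

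**Figure D3:**
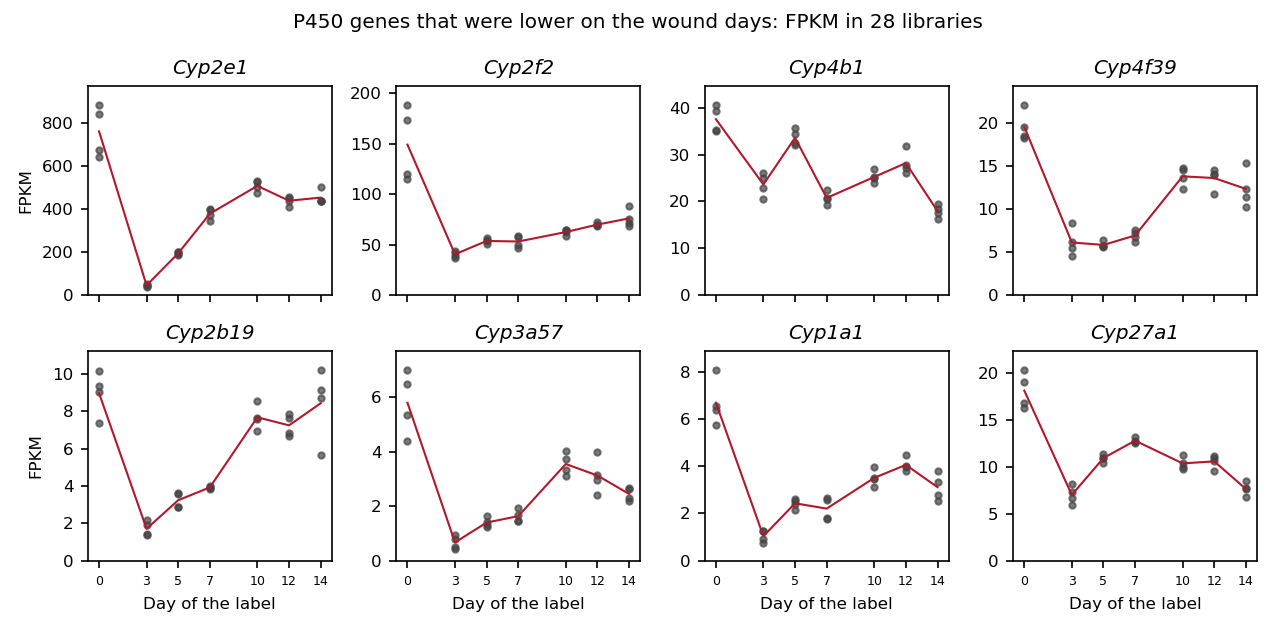
Points give FPKM of 8 P450 genes in each of the 28 libraries against the day of the label, and red lines join the means of 4 libraries. Cyp2e1 drops from 643 to 884 FPKM on Day0 to 39.4 to 50.9 on Day3 and climbs back part of the way, while Cyp2b19 overlaps its Day0 range of FPKM again from Day10 on.

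Cyp4f39 and Cyp2b19 were both lower on Day3 and came back to different degrees. Cyp4f39 adds the terminal hydroxyl group to the very long fatty acids of acylceramides, the lipids that seal the skin barrier. It fell from 19.5, 18.4, 18.2 and 22.1 FPKM on Day0 to 8.38, 5.43, 6.18 and 4.54 on Day3 (log2 fold change -1.62 ± 0.13, adjusted p = 1.93e-11). Means of 5.84 on Day5 and 6.94 on Day7 showed no early return, and on Day10 the mean reached 13.8 ± 1.1 (SD, n = 4). It was still called lower on Day14 (log2 fold change -0.79 ± 0.13).

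Cyp2b19, an arachidonic acid epoxygenase of differentiating keratinocytes, had the fuller return. FPKM went from 9.02, 7.36, 9.35 and 10.1 on Day0 to 2.16, 1.88, 1.37 and 1.41 on Day3, 5.06-fold lower (adjusted p = 3.87e-14). From Day10 on its FPKM overlapped those of Day0, with 6.96 to 8.53 on Day10 (adjusted p = 0.0762) and 6.67 to 7.83 on Day12, when it was still called lower (adjusted p = 0.00547). In TMM-scaled CPM, 3 of 4 libraries on Day10 and 4 of 4 on Day12 lay under all Day0 libraries, and 1 of 4 on Day14. On Day14 the libraries held 8.72, 9.12, 5.67 and 10.2 FPKM (log2 fold change -0.22 ± 0.13, adjusted p = 0.139). The suprabasal keratinocyte markers were lower on Day3 as both genes were, and differed from Cyp2b19 on Day14. They summed to 4134 to 4604 CPM on Day0, 1377 to 1868 on Day3, 3487 to 3888 on Day12 and 1369 to 1937 on Day14, with 6 of 6 lower on Day3 and 5 lower and 1 higher on Day14. Cyp2b19 was thus near its Day0 level on a day when these markers were again low. Their part in the result was not tested.

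The family 2J genes, a cluster of arachidonic acid epoxygenases on chromosome 4, fell most on Day3 in 4 of 4 members. Cyp2j8 went from 2.13, 2.63, 2.30 and 2.36 to 0.284, 0.118, 0.118 and 0.236 FPKM, 11.9-fold lower (counts 180 to 231 and 10 to 24, adjusted p = 4.89e-14). Cyp2j12 went from 6.34, 9.73, 7.68 and 7.76 to 1.08, 0.830, 0.998 and 0.5 FPKM, 8.88-fold lower (adjusted p = 5.2e-13). No library of Day3 reached a Day0 library in either gene. Cyp2j9 and Cyp2j6 had log2 fold changes of -1.79 ± 0.15 and -0.89 ± 0.07 on Day3. On Day14 the 4 genes lay between -1.77 (Cyp2j12) and -0.86 (Cyp2j6) on the log2 scale, all called lower. None was back at its Day0 level, and for Cyp2j6 no difference was called between Day3 and Day14 (adjusted p = 0.684), after a log2 fold change of -0.46 on Day10.

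Cyp3a57, a member of the family of steroid and drug oxidizing enzymes, was also lowest on Day3. FPKM went from 4.38, 6.99, 6.48 and 5.34 to 0.943, 0.809, 0.506 and 0.410 on Day3 (log2 fold change -3.06 ± 0.20, adjusted p = 2.29e-13) and was 3.55 ± 0.410 on Day10 and 2.45 ± 0.239 on Day14 (SD, n = 4). Of its transcripts' 50-base stretches, 8.63% also occur in other genes, most of them in Cyp3a59. Cyp3a13, of the same family, was far less abundant, with 0.559, 0.921, 0.994 and 0.431 FPKM on Day0 and 0.339, 0.171, 0.193 and 0.180 on Day3 (adjusted p = 1.6e-06). Its calls on Day10 and Day12 rested on Day0 libraries 2 and 3, and with libraries 1 and 4 alone the log2 fold changes were -0.11 (adjusted p = 0.756) and -0.11 (adjusted p = 0.76). For Day10, leaving out Day0 library 2, Day0 library 3, Day10 library 2 or Day10 library 3 on its own ended it (adjusted p from 0.0506 to 0.117), and for Day12, leaving out Day0 library 2, Day0 library 3 or Day12 library 4 on its own ended it (adjusted p from 0.0784 to 0.113).

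Cyp2w1 was scarce and fell 9.12-fold on Day3, from 1.11, 0.634, 0.666 and 1.31 to 0.110, 0.110, 0.0790 and 0.0914 FPKM (adjusted p = 1.21e-10). It recovered to 0.598 ± 0.188 FPKM on Day10 and dropped again to 0.234 ± 0.0399 on Day14 (SD, n = 4). Its Day10 call was lost with Day0 libraries 2 and 3 alone (log2 fold change -0.17, adjusted p = 0.622), and leaving out Day0 library 1, Day0 library 4, Day10 library 2 or Day10 library 3 on its own ended it (adjusted p from 0.0551 to 0.108). Of 8 sebaceous gland markers, 6 to 8 were called lower on each of the 6 wound days, and none higher. They summed to 1466 to 1739 CPM on Day0, 267 to 380.4 on Day3, 969.6 to 1086 on Day10 and 651 to 902 on Day14, and 8 of 8 were called lower on Day3. They thus had the same low day as Cyp2e1, Cyp2j8, Cyp2j12, Cyp3a57 and Cyp2w1, and their part in these results was not tested.

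The family 1 genes, both known targets of the aryl hydrocarbon receptor (AHR), moved in opposite directions. Cyp1a1 and Cyp1b1 oxidize polycyclic aromatic hydrocarbons, and Cyp1b1 also hydroxylates estrogens. Their promoters are shown because both are known AHR targets. Whether the sites through which AHR acts on them lie in the windows shown was not examined. They run from 250 bases before to 50 after the gene's start in RefSeq, 5′ to 3′ on the gene's strand, with build GRCm38.p6. RefSeq and GENCODE starts differ in some genes, and the Cyp1a1 window lies inside the gene as GENCODE M21 bounds it. The windows are at chr9:57697363-57697662 (plus strand) and chr17:79715012-79715311 (minus strand). Capitals mark GCGTG, the core of the AHR element, and TATAAA, on either strand, which do not overlap here.
Cyp1a1: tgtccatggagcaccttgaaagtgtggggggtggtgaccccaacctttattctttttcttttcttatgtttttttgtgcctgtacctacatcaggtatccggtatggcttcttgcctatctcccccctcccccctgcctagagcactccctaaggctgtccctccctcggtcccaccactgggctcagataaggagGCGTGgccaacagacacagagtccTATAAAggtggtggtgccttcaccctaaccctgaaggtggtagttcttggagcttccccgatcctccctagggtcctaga
Cyp1b1: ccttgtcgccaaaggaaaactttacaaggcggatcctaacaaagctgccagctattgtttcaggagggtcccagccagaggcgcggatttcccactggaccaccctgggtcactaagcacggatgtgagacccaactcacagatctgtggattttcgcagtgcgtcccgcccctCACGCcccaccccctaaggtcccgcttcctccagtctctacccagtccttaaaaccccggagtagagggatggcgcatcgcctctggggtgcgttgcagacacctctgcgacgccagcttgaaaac

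GCGTG was found once in each window, and in 32.4% of all 32817 promoters of the same length. TATAAA was found in that of Cyp1a1 and in 13.6% of all promoters. Of the members, 29 were in the promoter table with 30 promoters, of which 12 held GCGTG, 3 held TATAAA and 4 held TGANTCA, the AP-1 motif, which 7.81% of all promoters held. A match is a description of letters and not of a bound site.

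Cyp1a1 held 6.38, 8.05, 6.55 and 5.76 FPKM on Day0 and 1.23, 0.920, 1.24 and 0.745 on Day3, 6.22-fold lower (log2 fold change -2.64 ± 0.16, adjusted p = 4.87e-14). The groups did not overlap on any wound day, and the Day12 mean of 4.05 ± 0.284 (SD, n = 4) was the highest of the wound. Cyp1b1 went the other way on Day3, from 17.1, 17.1, 17.6 and 12.3 to 46.8, 45.9, 43.2 and 45.3 FPKM, 2.94-fold higher (adjusted p = 1.52e-16). Day0 library 4 was the low value of its group. The mean of Cyp1b1 then sank to 15.6 ± 0.0593 on Day10, where no difference from Day0 was called (adjusted p = 0.282), and stood at 26.1 ± 0.493 on Day12 and 22.2 ± 1.41 on Day14, again above all Day0 libraries. With Day0 libraries 2 and 3 alone, Day10 was called lower (log2 fold change -0.20, adjusted p = 0.00305).

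The receptor Ahr was itself lower on all 6 wound days, with 12.0 ± 1.88 FPKM on Day0, 7.73 ± 0.567 on Day3 and 5.36 ± 0.433 on Day14 (SD, n = 4, Day14 adjusted p = 2.03e-12). Its partner Arnt stayed between 14.8 and 18.3 FPKM on the wound days. Further known targets of the receptor also differed from each other. Ahrr, its repressor, was lower on all wound days (Day3 log2 fold change -0.90 ± 0.20), and Tiparp was higher on Day3 (log2 fold change 1.31 ± 0.07, adjusted p = 1.89e-15) and lower on Day14 (-0.69 ± 0.07).

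A small group rose early, with the highest mean on Day3. Cyp4f18, which inactivates leukotriene B4 and is known from mouse neutrophils, went from 4.39, 1.81, 1.96 and 2.93 FPKM on Day0 to 15.9, 16.4, 16.5 and 18.6 on Day3, 6.32-fold higher (adjusted p = 8.11e-14). It held 13.1, 13.0, 13.4 and 14.7 on Day5 and 6.80, 8.30, 7.68 and 7.45 on Day7, and no library of these 3 days overlapped Day0. On Day10 it was 3.05 ± 0.191 FPKM (SD, n = 4), and it was under every Day0 library with 1.38, 1.14, 1.53 and 1.44 on Day12 and 0.811, 0.740, 0.796 and 0.996 on Day14 (log2 fold change -1.86 ± 0.19, adjusted p = 1.77e-09). Day10 depended on the Day0 libraries, being higher against libraries 2 and 3 (log2 fold change 0.65, adjusted p = 1.8e-05) and lower against 1 and 4 (-0.32, adjusted p = 0.038). Of its exonic bases, 9.8% overlap Zfp961 on the other strand.

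Cyp7b1, which adds a hydroxyl group to oxysterols and steroids, had a similar course. The Day0 libraries held 2.19, 3.46, 3.82 and 2.14 FPKM and the Day3 libraries 16.7, 13.1, 14.0 and 12.5 (log2 fold change 2.33 ± 0.17, adjusted p = 1.72e-12). On the following days it held 6.43 ± 0.711 on Day5 and 4.86 ± 0.122 on Day7 (SD, n = 4). On Day14 the libraries held 0.665, 1.03, 0.828 and 1.49 FPKM, all under Day0 (log2 fold change -1.66 ± 0.19). Neither pair of Day0 libraries ended the calls on Day3 or Day14.

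Most or all neutrophil, macrophage and endothelial markers were also called higher on Day3, Day5 and Day7. All 7 neutrophil markers were called higher on Day3, Day5, Day7 and Day10, with sums of 16.4 to 42.7 CPM on Day0, 4369 to 5514 on Day3, 539.9 to 955 on Day7, 222 to 247 on Day10 and 15.2 to 18.6 on Day14. Ly6g had no count on Day0 and Day12. The 7 macrophage markers were all higher on Day3 and all lower on Day14, with sums of 1246 to 1753, 2915 to 3034 and 430.0 to 465 on Day0, Day3 and Day14. On Day10 and Day12, 6 of them were lower, while Cyp7b1 was called on neither day and Cyp4f18 not on Day10. All 5 endothelial markers were higher on Day3, Day5 and Day7, with sums of 377 to 515 CPM on Day0 and 767 to 835 on Day3, and 2 were lower on Day14. Cyp4f18 and Cyp7b1 were under their Day0 level on Day14. The part of these cells in the result was not tested.

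Members of subfamily 4F, also fatty acid hydroxylases, did not move in 1 direction. Of the 6 members, 5 lie near each other on chromosome 17, in the order Cyp4f39 (chr17:32452723-32493320), Cyp4f17 (chr17:32506050-32530143), Cyp4f16 (chr17:32536558-32551798), Cyp4f37 (chr17:32621309-32636184) and Cyp4f13 (chr17:32924688-32947402) in mm10, and Cyp4f18 lies on chromosome 8. Of the 5, Cyp4f16 went from 5.29, 4.52, 4.39 and 4.22 to 11.5, 13.4, 10.5 and 11.8 FPKM on Day3, 2.66-fold higher (adjusted p = 9.49e-15), and came down to 4.82 ± 0.246 on Day14 (SD, n = 4, adjusted p = 0.533). Its Day12 call was lost with Day0 libraries 1 and 4 alone (adjusted p = 0.121). Leaving out Day0 library 3, Day0 library 4, Day12 library 1 or Day12 library 3 on its own also ended it (adjusted p from 0.0521 to 0.0603). Its transcripts share 17.4% of their 50-base stretches with other genes, mostly Cyp4f37, so that the counts of the 2 genes are uncertain. Cyp4f37 moved the other way, from 0.838, 2.60, 3.15 and 1.11 FPKM on Day0 to 0.367, 0.598, 0.625 and 0.482 on Day3 and 0.242, 0.282, 0.360 and 0.392 on Day14. It was called lower on all 6 days, but with Day0 libraries 1 and 4 alone not on Day7 (adjusted p = 0.0967) and Day12 (adjusted p = 0.208).

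Cyp4v3, a hydroxylase of medium-chain fatty acids, was higher on Day3 (12.9, 13.8, 14.3 and 14.1 FPKM against 9.49, 9.92, 9.47 and 11.3 on Day0, log2 fold change 0.51 ± 0.07). It was lower on Day14 by a small margin (log2 fold change -0.27 ± 0.07, adjusted p = 0.000789), a call lost without composition normalization (adjusted p = 0.0512), and leaving out Day0 library 4 on its own ended it (adjusted p = 0.074). Its Day12 call was lost with Day0 libraries 2 and 3 alone (adjusted p = 0.247). Leaving out any of several single libraries also ended the Day12 call (adjusted p from 0.0512 to 0.28). The highest of these came without Day0 library 4 (log2 fold change -0.09). Cyp2u1, a long-chain fatty acid hydroxylase, was scarce and had its highest values on Day5, with 0.967, 1.40, 1.00 and 0.927 FPKM against 0.352, 0.297, 0.557 and 0.444 on Day0 (log2 fold change 1.42 ± 0.22, adjusted p = 3.81e-06). Day5 library 2 was the highest of its group. Both genes were higher than Day0 on Day3, Day5, Day7 and Day10, Cyp2u1 on Day10 not with Day0 libraries 2 and 3 alone (adjusted p = 0.0556).

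Enzymes of cholesterol and oxysterol turnover other than Cyp7b1 were lower on Day3. Cyp27a1, the mitochondrial sterol hydroxylase, fell from 16.9, 19.1, 20.3 and 16.3 FPKM on Day0 to 8.17, 7.33, 6.64 and 5.88 on Day3 (log2 fold change -1.32 ± 0.08, adjusted p = 3.92e-14). It came up to 12.8 ± 0.299 on Day7 and was back down at 7.63 ± 0.691 on Day14 (SD, n = 4, log2 fold change -1.38 ± 0.08). Cyp39a1, an oxysterol hydroxylase, fell on Day3 from 4.14, 3.94, 4.61 and 5.99 to 1.95, 1.68, 1.61 and 1.72 FPKM (adjusted p = 1.08e-11) and then climbed. On Day12 it held 4.93, 6.11, 5.71 and 5.80 FPKM (log2 fold change 0.13 ± 0.10, adjusted p = 0.329) and on Day14 5.03, 4.93, 5.41 and 4.43 (adjusted p = 0.756).

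Cyp46a1, the cholesterol hydroxylase known from neurons, lay near the limit of detection. It had 8 to 26 counts per library on Day0, 1 to 5 on Day3 and 24 to 44 on Day10. The fall on Day3 (log2 fold change -2.20 ± 0.51, adjusted p = 0.00047) and the rises on Day10 (1.19 ± 0.39, adjusted p = 0.0116) and Day14 (1.07 ± 0.39, adjusted p = 0.0181) were called. Against Day0 libraries 2 and 3 alone, the rises were not (adjusted p = 0.0828 and 0.11), and for Day14, leaving out Day0 library 2 or Day14 library 4 on its own ended it (adjusted p from 0.0578 to 0.127). The precision of this gene was limited by its counts.

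Of the retinoic acid degrading enzymes, Cyp26b1 met the count rule and Cyp26a1 and Cyp26c1 did not. The Day0 libraries held 9.13, 8.30, 8.57 and 9.19 FPKM and the Day3 libraries 12.7, 9.74, 11.5 and 8.88, slightly higher (log2 fold change 0.34 ± 0.10, adjusted p = 0.0031). Means of 5.60 ± 0.616 on Day5, 5.79 ± 0.214 on Day7, 5.55 ± 0.108 on Day10 and 7.43 ± 0.763 on Day12 (SD, n = 4) were all called lower than Day0. The drop on Day14 was the deepest, with 2.05, 2.03, 2.60 and 2.44 FPKM, 4.21-fold lower (adjusted p = 1.31e-15). Cyp26a1 had 54 counts and Cyp26c1 22 counts over the 28 libraries together. Among the retinoic acid receptors, Rarg, the main one of the epidermis, was lower on Day3 (log2 fold change -0.90 ± 0.06) and stood at 44.6 ± 2.13 FPKM on Day14 against 42.9 ± 2.27 on Day0 (adjusted p = 0.297).

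Cyp27b1, which makes the active form of vitamin D, was at the edge of detection until Day5 and rose late. It had 11 to 19 counts per library on Day0, 9 to 20 on Day3 and 9 to 12 on Day5, and 69 to 107 on Day12 and 59 to 128 on Day14. In FPKM, Day0 held 0.0827, 0.0841, 0.0867 and 0.0537 and Day14 0.452, 0.361, 0.579 and 0.276, 4.96-fold higher (log2 fold change 2.31 ± 0.28, adjusted p = 4.3e-08). All libraries of Day7, Day10, Day12 and Day14 lay above those of Day0. The smaller rises of Day7 and Day10 were not called with Day0 libraries 2 and 3 alone (adjusted p = 0.167 and 0.0578). For Day7, leaving out Day0 library 4, Day7 library 3 or Day7 library 4 on its own ended it (adjusted p from 0.0539 to 0.105).

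The vitamin D receptor Vdr was also higher late. It fell from 17.5 ± 2.93 FPKM on Day0 to 7.16 ± 0.738 on Day3 and reached 53.0 ± 2.29 on Day12 and 67.7 ± 2.10 on Day14 (SD, n = 4, log2 fold change 1.83 ± 0.10, adjusted p = 7.09e-15). Cyp24a1, the enzyme that inactivates vitamin D, had 59 counts in all and 16 at most in a library. The Day12 libraries held 8, 8, 16 and 8 of them, and no library of another day held more than 6. Cyp2r1, the hydroxylase of the preceding step, was called on Day14, where it was lower (0.339, 0.547, 0.347 and 0.567 FPKM against 0.587, 1.32, 0.933 and 0.640, log2 fold change -1.08 ± 0.28, adjusted p = 0.00159). With Day0 libraries 1 and 4 alone it was not (adjusted p = 0.191).

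The steroidogenic enzymes parted ways. Cyp11a1, which cuts the side chain of cholesterol to start steroid synthesis, was lower on 5 of the 6 wound days, on Day7 not with Day0 libraries 1 and 4 alone (adjusted p = 0.138). It held 3.69, 4.68, 4.11 and 3.22 FPKM on Day0, 1.75, 1.72, 2.14 and 1.82 on Day5 and 1.39, 1.64, 2.00 and 2.20 on Day14 (log2 fold change -1.25 ± 0.16, adjusted p = 1.06e-07). On Day12 it was 3.59 ± 0.527 FPKM (SD, n = 4, adjusted p = 0.151, with Day0 libraries 2 and 3 alone called lower, adjusted p = 0.032). Cyp17a1, which acts downstream of Cyp11a1, rose late instead. FPKM was 1.04, 0.791, 0.774 and 0.755 on Day0, 2.78, 2.81, 2.17 and 3.11 on Day10 and 4.16, 5.79, 6.44 and 5.59 on Day14, 5.98-fold over Day0 (log2 fold change 2.58 ± 0.17, adjusted p = 7.33e-13). On Day10, Day12 and Day14 no library overlapped Day0, while a rise called on Day5 was lost with Day0 libraries 1 and 4 alone (adjusted p = 0.229). Leaving out any of several single libraries also ended that Day5 call (adjusted p from 0.0518 to 0.215). Cyp19a1, the aromatase, had 3 counts over all libraries.

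**Figure D4:**
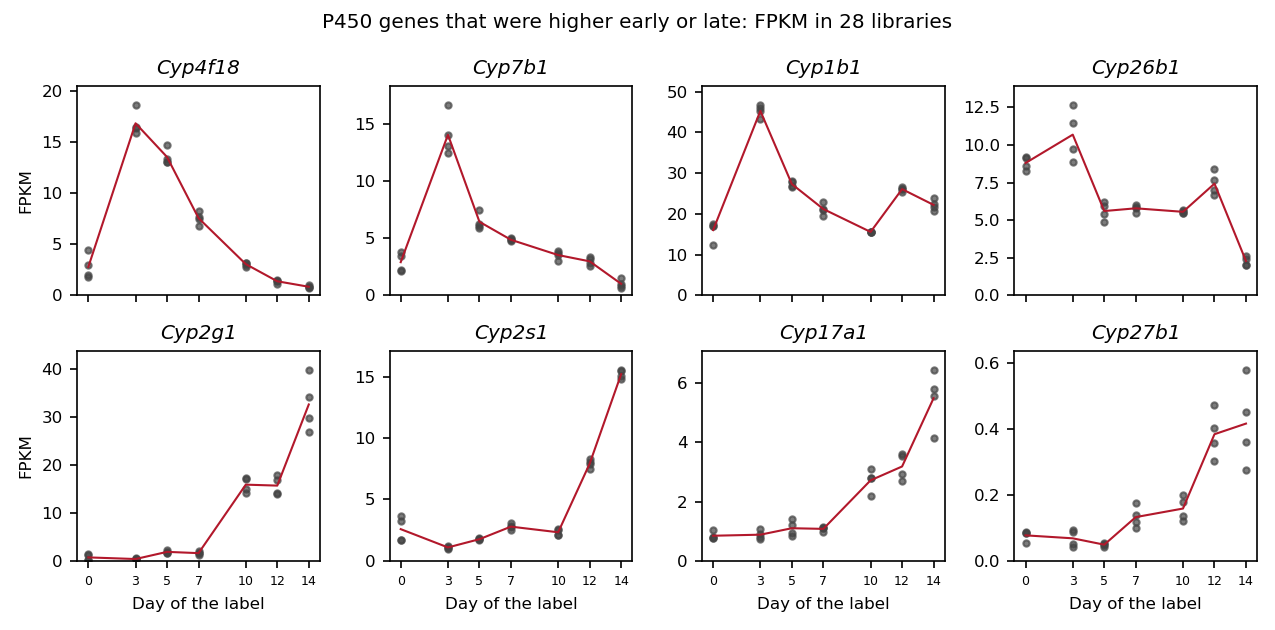
Points give FPKM in each of the 28 libraries against the day of the label, and red lines join the means of 4 libraries. The upper row shows genes highest on Day3, such as Cyp4f18 (15.9 to 18.6 FPKM), and the lower row genes highest on Day14, such as Cyp2g1 (26.9 to 39.8 FPKM).

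The largest late rise was found in a neighbourhood of family 2 genes whose other members mostly fell. In build mm10, 6 members lie near each other on chromosome 7 in the order Cyp2s1 (chr7:25802475-25816913), Cyp2b10 (chr7:25897620-25926624), Cyp2b23 (chr7:26665227-26686437), Cyp2b19 (chr7:26757142-26772630), Cyp2g1 (chr7:26808892-26821205) and Cyp2f2 (chr7:27119909-27133660), with positions from GENCODE M21. Cyp2g1 and Cyp2s1 were higher on Day14, Cyp2b10, Cyp2b23 and Cyp2f2 were lower, and for Cyp2b19 no difference was called.

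Cyp2g1, a P450 known from the olfactory mucosa, had 1.30, 0.0666, 0.0824 and 1.22 FPKM in the Day0 libraries. Libraries 1 and 4 thus held many times the RNA of 2 and 3 (5 to 94 counts over the 4). Day5 and Day7 held 1.67, 1.90, 1.59 and 2.14 and 2.02, 1.13, 1.52 and 1.56 FPKM. A steep step followed, to 17.1, 15.1, 14.1 and 17.3 on Day10, 17.9, 14.2, 16.8 and 13.9 on Day12 and 26.9, 29.8, 39.8 and 34.2 on Day14. The log2 fold change on Day14 was 5.51 ± 0.38 (adjusted p = 1.35e-12), from 4.64 with Day0 libraries 1 and 4 alone to 8.63 with 2 and 3 alone. On Day10, Day12 and Day14 every library lay above every Day0 library. Day3, where no difference was called in all 4 libraries (log2 fold change -0.96 ± 0.52, adjusted p = 0.104), was higher against libraries 2 and 3 (2.16, adjusted p = 0.000858) and lower against 1 and 4 (-1.85, adjusted p = 8.8e-07). The Day7 call was lost against 1 and 4 (adjusted p = 0.275).

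Cyp2s1, an epithelial P450, rose on the last days. It went down from 3.21, 1.71, 1.72 and 3.62 FPKM on Day0 to 1.04, 1.17, 1.13 and 0.958 on Day3 and held 2.13, 2.56, 2.09 and 2.46 on Day10. It then rose to 8.05, 7.85, 7.50 and 8.28 on Day12 and 15.0, 15.5, 14.8 and 15.5 on Day14, 5.44-fold over Day0 (log2 fold change 2.44 ± 0.16, adjusted p = 2.29e-13). The last 2 days lay above all Day0 libraries. The direction on Day5, Day7 and Day10 turned with the Day0 libraries used, from -0.62 (libraries 1 and 4, adjusted p = 5.16e-06) to 0.38 (libraries 2 and 3, adjusted p = 0.00321) on Day10, from -0.31 to 0.70 on Day7 and from -0.92 to 0.07 on Day5. For the Day5 call with all libraries, leaving out Day0 library 1 or Day0 library 4 on its own ended it (adjusted p from 0.0544 to 0.0899). The falls and rises of Day3, Day12 and Day14 were called with either.

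Hair follicle markers also rose on the late days. The 10 markers were all lower on Day3 and Day5 and all higher on Day12 and Day14, with sums of 246 to 1600.0 CPM on Day0, 4.45 to 11 on Day3, 869 to 1186 on Day7, 306 to 353 on Day10, 3855 to 5156 on Day12 and 3868 to 5159 on Day14. The markers were higher on Day7 than on Day10, and so was Cyp2s1, with means of 1.07 FPKM on Day3, 1.75 on Day5, 2.77 on Day7, 2.31 on Day10, 7.92 on Day12 and 15.2 on Day14. Cyp2g1 had another order, with 1.56 FPKM on Day7 and 15.9 on Day10. On Day0 the markers summed to 1600.0 in library 1 and to 246 in library 4, while Cyp2g1 was 1.30 and 1.22 FPKM and Cyp2s1 3.21 and 3.62 in them. The part of the follicle in these results was not tested.

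Cyp2b10, the drug-inducible enzyme of mouse liver, had a course of its own. FPKM was 19.8, 26.4, 27 and 16.5 on Day0, 8.23, 6.84, 6.66 and 4.93 on Day3, 25.6, 25.9, 28.6 and 30.2 on Day5 and 8.43, 8.84, 8.09 and 9.87 on Day7, so that Day5 stood up between low days. Day3 and Day7 were called lower (adjusted p = 1.34e-11 and 2.11e-09), and the Day5 call (log2 fold change 0.34 ± 0.13, adjusted p = 0.0264) was lost with Day0 libraries 2 and 3 alone (adjusted p = 0.516), and leaving out Day0 library 1, Day0 library 4 or Day5 library 4 on its own ended it (adjusted p from 0.0627 to 0.108). Day14 held 3.05, 3.59, 4.27 and 4.36 FPKM, 6.41-fold under Day0 (adjusted p = 7.64e-15). Of its 50-base stretches, 8.7% are shared with other genes, mostly Cyp2b13. Nr1i3, the receptor through which liver Cyp2b10 is induced, had 5 counts at most in a library.

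Cyp2b23 was lower on the wound days, by an amount that rested on which Day0 libraries were used. The Day0 libraries held 1.01, 4.79, 4.54 and 0.769 FPKM, high in 2 and 3, and the Day14 libraries 0.0807, 0, 0.181 and 0.0584. Counts per library went from 63 to 433 on Day0 to 0 to 16 on Day14, and a count of 0 allows up to 3 counts. The log2 fold changes were -3.47 ± 0.49 on Day10, -4.32 ± 0.52 on Day12 and -5.20 ± 0.57 on Day14 (adjusted p = 7.63e-09). Against Day0 libraries 1 and 4 alone they were -1.83, -2.67 and -3.49, all still called, but Day3 and Day7 were not (adjusted p = 0.176 and 0.177) and Day5 changed direction (0.31, adjusted p = 0.516). For Day5, leaving out Day0 library 2 or Day0 library 3 on its own ended it (adjusted p from 0.0504 to 0.062).

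Promoters of this neighbourhood are shown for a gene that rose and for a pair that fell, with the same window, source and motifs as above, and that of Cyp2s1 lies inside the gene as GENCODE M21 bounds it. They lie at chr7:25816476-25816775 (minus strand), chr7:25897408-25897707 (plus strand) and chr7:26686381-26686680 (minus strand).
Cyp2s1: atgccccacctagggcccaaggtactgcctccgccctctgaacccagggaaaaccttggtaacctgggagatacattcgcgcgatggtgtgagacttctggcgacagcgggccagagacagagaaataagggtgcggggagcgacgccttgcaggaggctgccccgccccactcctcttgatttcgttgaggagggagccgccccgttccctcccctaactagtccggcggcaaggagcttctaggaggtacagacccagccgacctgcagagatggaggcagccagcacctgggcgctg
Cyp2b10: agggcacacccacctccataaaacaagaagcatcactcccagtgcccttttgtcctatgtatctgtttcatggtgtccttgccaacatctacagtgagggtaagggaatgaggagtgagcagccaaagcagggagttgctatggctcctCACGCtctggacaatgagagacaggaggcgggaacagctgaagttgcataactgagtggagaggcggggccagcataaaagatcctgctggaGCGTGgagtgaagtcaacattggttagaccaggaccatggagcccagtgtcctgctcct
Cyp2b23: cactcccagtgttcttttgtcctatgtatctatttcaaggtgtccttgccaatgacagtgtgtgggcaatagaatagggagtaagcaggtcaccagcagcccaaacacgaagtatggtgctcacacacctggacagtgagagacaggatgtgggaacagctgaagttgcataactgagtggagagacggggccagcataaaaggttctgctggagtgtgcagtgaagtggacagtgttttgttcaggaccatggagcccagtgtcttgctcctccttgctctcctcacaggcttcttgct

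Those of Cyp2b10 and Cyp2b23 share an identical run of 34 bases, while that of Cyp2s1 shares no run of more than 8 bases with either. GCGTG occurs 2 times in the window of Cyp2b10 and not in the other 2, and none of the 3 windows holds TATAAA or TGANTCA.

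**Figure D5:**
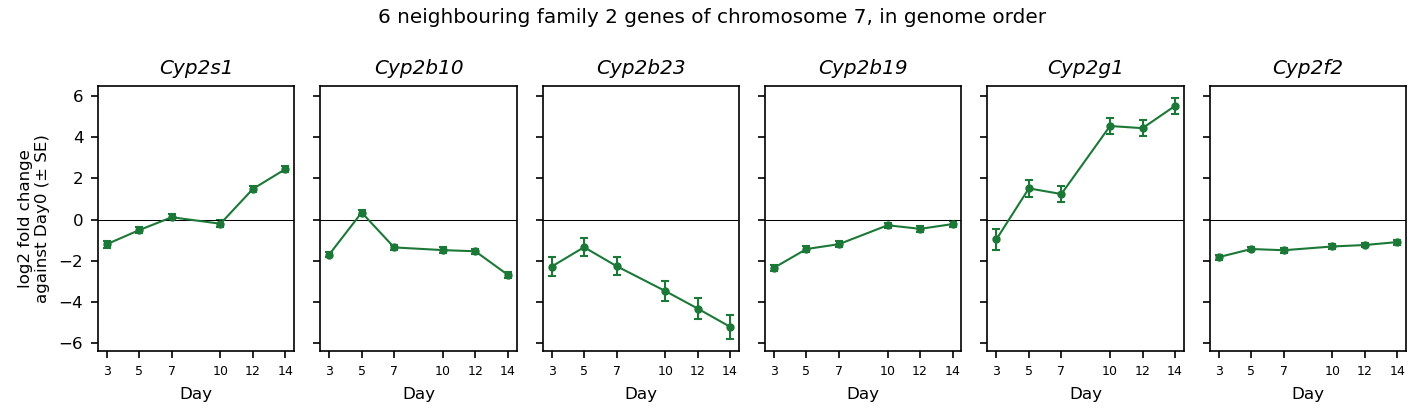
Points give the log2 fold change against Day0 (bars, SE) on the 6 wound days for the 6 P450 genes near each other on chromosome 7, in genome order. Cyp2g1 and Cyp2s1 end at 5.51 and 2.44 on Day14, and Cyp2b23 at -5.20.

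The members not yet described had small log2 fold changes. Cyp20a1, a P450 without a known substrate, ran from 8.05 to 12.5 FPKM in the means of the 7 days, and was called higher on Day3 (log2 fold change 0.26 ± 0.11, adjusted p = 0.0406) and lower on Day14 (-0.56 ± 0.11, adjusted p = 9.19e-05). The Day3 call was lost with Day0 libraries 2 and 3 alone (adjusted p = 0.691) and the Day14 call with 1 and 4 alone (adjusted p = 0.0748). For Day3, leaving out Day0 library 1 or Day0 library 4 on its own ended it (adjusted p = 0.0589 and 0.0752). With libraries 1 and 4 alone it was also called higher on Day5, Day7 and Day10 (log2 fold changes 0.49, 0.35 and 0.33). Cyp2d22 was higher on Day5 (8.66, 7.89, 9.09 and 10.1 FPKM against 6.19, 5.58, 5.40 and 6.29, log2 fold change 0.65 ± 0.09, adjusted p = 6.13e-07). It was called lower on Day3 and Day12, but not with Day0 libraries 2 and 3 alone (adjusted p = 0.0773 and 0.0604), and for Day3, leaving out Day3 library 1 on its own ended it (adjusted p = 0.0794). Day5 stood out from log2 fold changes of -0.34 to 0.18 on the other days. Cyp4f13 and Cyp4f17 had log2 fold changes over the 6 days from -0.26 to 0.26 and from -0.19 to 0.41.

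Late and early wound were compared directly, without Day0. From Day3 to Day14, 17 members were higher (47.2%, against 34.2% of all genes) and 14 lower (38.9%, against 32.8%), and the median of the members was 0.07. The rise was largest in Cyp2g1 (log2 fold change 6.47 ± 0.42, adjusted p = 1.05e-13), followed by Cyp2s1 (3.64 ± 0.17), Cyp46a1 (3.27 ± 0.48), Cyp2e1 (3.11 ± 0.10, adjusted p = 9e-21), Cyp17a1 (2.46 ± 0.17) and Cyp27b1 (2.44 ± 0.28). The fall was largest in Cyp4f18 (-4.52 ± 0.19, adjusted p = 7.26e-18), followed by Cyp7b1 (-4.0 ± 0.19), Cyp2b23 (-2.92 ± 0.60) and Cyp26b1 (-2.41 ± 0.10). Cyp27a1, low on both days, did not pass (adjusted p = 0.521). Without composition normalization the split was 19 higher and 11 lower.

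P450s depend on genes that supply electrons and heme. Of 7 electron donor genes, with a median log2 fold change of 0.19 on Day3, 2 were higher and 2 lower on that day, where 31.8% of all genes were higher and 34.8% lower. Por, the oxidoreductase that serves the microsomal P450s, was 59.1 ± 3.47 FPKM on Day0 and 72.0 ± 2.37 on Day3 (SD, n = 4, log2 fold change 0.34 ± 0.06, adjusted p = 9.57e-06), and 57.1 ± 4.51 on Day14. Fdxr, the reductase of the mitochondrial chain, was higher on all 6 days and reached a log2 fold change of 1.02 ± 0.09 on Day10. Of 8 genes of heme synthesis, 3 were higher and 2 lower on Day3 and on Day14, and on Day14 28.2% of all genes were higher and 34.5% lower. Alas1, its rate-limiting enzyme, was 59.4 ± 3.34 FPKM on Day3 against 44.6 ± 12.2 on Day0 (adjusted p = 0.000547).

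Epoxide hydrolases, which act on products of the epoxygenases, were split. Ephx1 fell from 70.9 ± 4.47 FPKM on Day0 to 14.9 ± 1.32 on Day3 (SD, n = 4, log2 fold change -2.20 ± 0.07, adjusted p = 1.15e-19), and Ephx2 rose from 25.3 ± 2.88 to 74.5 ± 6.83 (1.62 ± 0.07, adjusted p = 4.7e-17). Ephx3 was lower on all 6 days and Ephx4 on 4 of them. Ephx2 was thus up on the day on which the epoxygenase genes Cyp2b19, Cyp2j8 and Cyp2j12 were lowest. Of 16 receptors and regulators tested, 5 were higher and 8 lower on Day3, and 4 higher and 8 lower on Day14. Over all genes, 31.8% were higher and 34.8% lower on Day3, and 28.2% and 34.5% on Day14.

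Of 5 P450 genes with other symbols, 3 were tested, of which 2 were higher and 1 lower on Day3 and all 3 lower on Day14. Cyp51, a step of cholesterol synthesis, fell from 47.6 ± 3.58 FPKM on Day0 to 18.0 ± 1.63 on Day3 (SD, n = 4, log2 fold change -1.35 ± 0.06, adjusted p = 2.31e-16) and held 36.3 ± 1.46 on Day14. Ptgis, the prostacyclin synthase, rose on Day5 (log2 fold change 1.5 ± 0.14) and fell on Day14 (-1.19 ± 0.15), and Tbxas1, the thromboxane synthase, did the same on Day3 (0.95 ± 0.08) and Day14 (-1.15 ± 0.09). All of these differences were called. Cyp4a12b had no count.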

How the data were processed

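RNA was extracted with TRIzol, and libraries were made with a VAHTS Universal V6 kit per the labels. For the 28 libraries, the authors deposited a table of raw gene counts and a table of FPKM. The submitters' processing notes name mm10, fastp and R 3.2.0, while the aligner, the counter, the annotation and the strand setting are not given in the sources used here. Reads that fit near-identical genes, or genes that overlap on both strands, may therefore be split or shared.

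Counts were fitted with edgeR 4.0.16 (quasi-likelihood, TMM, filterByExpr on the 7 days) in R 4.3.3 on all 28 libraries with day as the factor, which left 21 residual degrees of freedom. P-values were two-sided and Benjamini-Hochberg adjusted over 18107 of 29068 genes. CPM were counts over TMM-scaled totals. FPKM were used as deposited, for levels only. The authors' own tests used DESeq2, and DESeq2 1.42.0 and limma 3.58.1 (on log2 FPKM) were alternatives here, beside other normalizations and filters, a replicate block, Xist as a covariate, the 8 libraries of a comparison alone and leaving out each library. Xist was at most 0.295 CPM in all 28 libraries, so as a covariate it could not show an effect of sex. On simulated counts for Day3 against Day0, edgeR recovered 187 of 200 genes changed 2-fold, with 13 false calls among 17727 genes tested. The simulation gave each gene the same spread on all days and did not split the Day0 libraries. It therefore does not measure error rates against the real Day0 libraries. The members, the marker and pathway lists and the rule for named genes were chosen with earlier results of these data known. Genes named with values were the most abundant members of each P450 family (up to 4 in families 2 and 4 and 2 in others), the 3 largest called increases and decreases against Day0 on each day at a mean of at least 1 CPM, and genes with a known role in skin, lipid, steroid, retinoid or vitamin D metabolism. Cyp2d22, Cyp2j6, Cyp2j9, Cyp2r1, Cyp4f13, Cyp4f17 and partner genes were named beyond this rule, after their values were seen, so that every member is accounted for. The median chi-square per gene between libraries of a day was at least 1.48, against 0.455 for counting noise, so no library was taken for a duplicate. Depth per library was similar, and counting error adds to the spread mainly in members with few counts. Promoters were matched by symbol.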

Additional observations from a re-analysis of the deposited data

Results flagged for a closer look

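Among 210 sets of 4 libraries, 1 for each named member and day, 12 held a library that stood far from the other 3 on the log2 CPM scale (a gap past Dixon's 95% critical value). Chance flags about 1 in 20 such sets, or 10 of 210. For Cyp1b1, Day0 library 4 was at 6.031 against 6.504 to 6.536 in the others, and Day3 library 3 at 7.901 against 7.977 to 7.989. For Cyp2e1, Day12 library 2 was at 9.373 against 9.515 to 9.538, and Day14 library 3 at 9.748 against 9.470 to 9.499. Day12 library 2 was also low for Cyp27a1, at 4.434 against 4.620 to 4.645. Day10 library 1 was at 6.702 for Cyp2f2 against 6.849 to 6.860, and Day10 library 2 at 3.849 for Cyp4f16 against 3.937 to 3.955. Cyp17a1 was at 1.311 in Day0 library 1 against 0.9403 to 0.9934, and Cyp27b1 at -0.3111 in Day0 library 4 against -0.03589 to -0.01073. Cyp20a1 was at 4.457 in Day7 library 4 against 4.836 to 4.906. Cyp2w1 was at 1.020 in Day5 library 3 against 0.3623 to 0.4215, and Cyp2u1 at 1.967 in Day5 library 2 against 1.487 to 1.561.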

How the results depend on the processing

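Each of the 22 counts of members remained within 1.5 times its value under other normalizations, filters, tools and model terms, except the counts past the fold limit in limma on log2(FPKM + 1), which gave 10, 4, 1, 1, 2 and 6 members on Day3, Day5, Day7, Day10, Day12 and Day14 against 18, 9, 6, 4, 5 and 13. A pseudocount of 1 shrinks fold changes of scarce genes. With Day0 libraries 2 and 3 alone, a choice made after seeing the data, the Day7 count past the fold limit was 11 against 6. Leaving out any of the 28 libraries moved no count of members beyond 1.5 times. Of 188 calls among 218 comparisons of single members, 165 were kept under all of these and with each library left out and 156 also with either pair of Day0 libraries. The replicate numbers did not pair the libraries, since the deviations of same-numbered libraries correlated with a median r of 0.0006 and over 0.1 in 4 of 84 pairs. With the replicate number as a block, the counts were 9 higher on Day5, 6 higher and 24 lower on Day14 and 7 past the fold limit on Day7, and the others did not move. Sign changes were found in 17 comparisons of single members, 11 of them called neither in the reported fit nor where the sign changed, and the cause was not tested. Against Day0 libraries 2 and 3 alone, the log2 fold changes that turned sign were Cyp20a1 Day7 -0.11, Cyp20a1 Day10 -0.13, Cyp2g1 Day3 2.16, Cyp2s1 Day5 0.073, Cyp2s1 Day10 0.38, Cyp39a1 Day14 0.092, Cyp46a1 Day5 -2.68e-04 and Cyp7b1 Day10 -0.095. Against Day0 libraries 1 and 4 alone, the log2 fold changes that turned sign were Cyp1b1 Day10 0.024, Cyp20a1 Day12 0.18, Cyp27b1 Day3 0.087, Cyp2b23 Day5 0.31, Cyp2s1 Day7 -0.31, Cyp4f18 Day10 -0.32 and Cyp7b1 Day12 0.33. Without composition normalization, the log2 fold changes that turned sign were Cyp20a1 Day12 0.060, Cyp27a1 Day14 from Day3 0.12, Cyp39a1 Day14 0.084, Cyp4f16 Day14 0.067 and Cyp7b1 Day12 0.034. In limma on log2(FPKM + 1), the log2 fold changes that turned sign were Cyp20a1 Day12 0.063, Cyp27a1 Day14 from Day3 0.11, Cyp39a1 Day14 0.080, Cyp4f16 Day14 0.058 and Cyp7b1 Day12 0.050. In limma on log2(FPKM + 0.1), the log2 fold changes that turned sign were Cyp20a1 Day12 0.069, Cyp27a1 Day14 from Day3 0.13, Cyp39a1 Day14 0.097, Cyp4f16 Day14 0.070 and Cyp7b1 Day12 0.074. In edgeR on the 8 libraries of a comparison, the log2 fold changes that turned sign were Cyp39a1 Day14 0.029 and Cyp4f16 Day14 0.010. With a filter of at least 10 counts in at least 4 libraries, the log2 fold changes that turned sign were Cyp39a1 Day14 0.0046. Leaving out each library in turn gave ranges that crossed 0 for Cyp20a1 Day10 from -0.0048 to 0.18, Cyp20a1 Day12 from -0.19 to 0.028, Cyp27a1 Day14 from Day3 from -0.10 to 0.045, Cyp27b1 Day3 from -0.26 to 0.10, Cyp2s1 Day7 from -0.041 to 0.32, Cyp2s1 Day10 from -0.36 to 0.0083, Cyp39a1 Day14 from -0.10 to 0.18, Cyp46a1 Day5 from -0.055 to 0.57, Cyp4f16 Day14 from -0.081 to 0.095, Cyp4f18 Day10 from -0.073 to 0.41 and Cyp7b1 Day12 from -0.21 to 0.053. Scarce members such as Cyp46a1 and Cyp27b1 were limited by their counts.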
